A study of Mus musculus with 2 samples.

Results

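The translation initiation factor genes are the mRNA rows of the deposited count table whose symbol starts with Eif and a number from 1 to 6, with the eIF2 kinases (Eif2ak genes) left out. There were 52 such genes among 23374 mRNA rows and 44792 rows in all. The series compared OCCM-30 cells under compressive force with control OCCM-30 cells, both wild type, with 1 RNA sequencing library per group. OCCM-30 is an immortalized mouse cell line that resembles cementoblasts, the cells that form the mineralized cementum of tooth roots. How strong the force was and how long it lasted are not stated in the labels.

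Initiation factors bring the small ribosomal subunit, the initiator tRNA and the mRNA together. eIF2 carries the initiator tRNA and is reloaded with GTP by eIF2B, eIF3 is the large scaffold on the small subunit, and eIF4F binds the mRNA cap and unwinds the leader. Initiation is controlled at a pair of points in particular: stress kinases phosphorylate eIF2 and so block eIF2B, and the eIF4E-binding proteins (4E-BPs) hold the cap-binding protein eIF4E away from eIF4G until mTORC1 phosphorylates them. Under low oxygen or loss of growth signals, cells are known to lower bulk translation at both points.

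Library totals were 24296292 counts under compression and 25049919 counts in the control library. Levels are given as counts per 1000000 (CPM) on library sizes scaled by the trimmed mean of M-values (TMM), and every ratio is the compressed over the control library. The interval after each ratio is an exact 95% interval for counting error. It leaves out the spread between cultures, which 1 library per group cannot show, so no ratio has a replicate check, and no p-value is given. CPM values are not divided by transcript length, so levels are compared between libraries and not between genes. Of 11 cementoblast and osteoblast markers, 7 passed the minimum of 1 CPM in either library: Col1a1, Col1a2, Sparc, Runx2, Sp7, Alpl and Spp1. Runx2 was the 1 of these with a ratio below 1, at 0.787 (0.757 to 0.819). Bglap had 12 against 11 counts, Bglap2 0 against 4 and Dmp1 24 against 14, all under the minimum. Bone sialoprotein (Ibsp), a defining cementoblast marker, was listed at 0 in both libraries. Of 5 leukocyte, 5 epithelial and 4 endothelial markers, 2, 1 and 2 passed the minimum. Cd68 had 150 against 143 counts, Csf1r 39 against 44, Krt8 27 against 23, Vwf 84 against 70 and Pecam1 21 against 32, while Ptprc, Epcam and Kdr were listed at 0 in both libraries.

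Most initiation factor mRNAs were slightly lower in the compressed library, and the most evident exception was a repressor of initiation, Eif4ebp1. Of the 52 genes, 47 had at least 1 CPM in either library. Of these, 35 had a ratio below 1 and 12 a ratio above 1, while 51.4% of 11757 mRNAs above the same minimum had a ratio below 1. The median log2 ratio was -0.14, against -0.01 for those mRNAs. The counting interval lay wholly below 1 for 27 of the 47 genes (57.4%), against 30.8% of all mRNAs, and wholly above 1 for 4 of them (8.51%), against 28.1% of all mRNAs. Members had a median of 5039 counts over both libraries, against 1774 for all mRNAs, so their intervals were narrower and these shares are not matched on depth. The 4 genes with intervals above 1 were Eif4ebp1, Eif4b, Eif3f and Eif3c. Some intervals ended close to 1, such as that of Eif3c, from 1.002, and that of Eif2d, up to 0.998. The counts of intervals were not repeated under other scalings. In bulk RNA, less of an mRNA per cell and fewer cells with it cannot be told apart.

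The differences were small. A limit on size was set at a ratio at least 25% above 1 or at most 0.8, with an interval that excluded 1. By it, 3 members were lower (Eif1a, Eif2b3 and Eif3j2), which is 6.38% of the 47 against 10.8% of all mRNAs. Eif4ebp1 was the 1 member that was higher by it, 2.13% of the 47 against 14.2% of all mRNAs. At 1.5-fold, 0 members were higher and 0 lower, against 6.69% and 2.73% of all mRNAs. Their middle 50% of log2 ratios ran from -0.23 to 0.00, and that of all mRNAs from -0.19 to 0.20. As a group the 52 genes held 202255 counts in the compressed library and 224162 in the control library, which was 0.832% (0.829 to 0.836) and 0.895% (0.891 to 0.899) of all counts. A few genes weigh heavily in this share. Summed CPM went from 8945 in the control library to 8328 under compression, and that of Eif4g2 alone from 1375 to 1149. Eif4b went the other way, from 656.9 to 740.2.

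**Figure D1:**
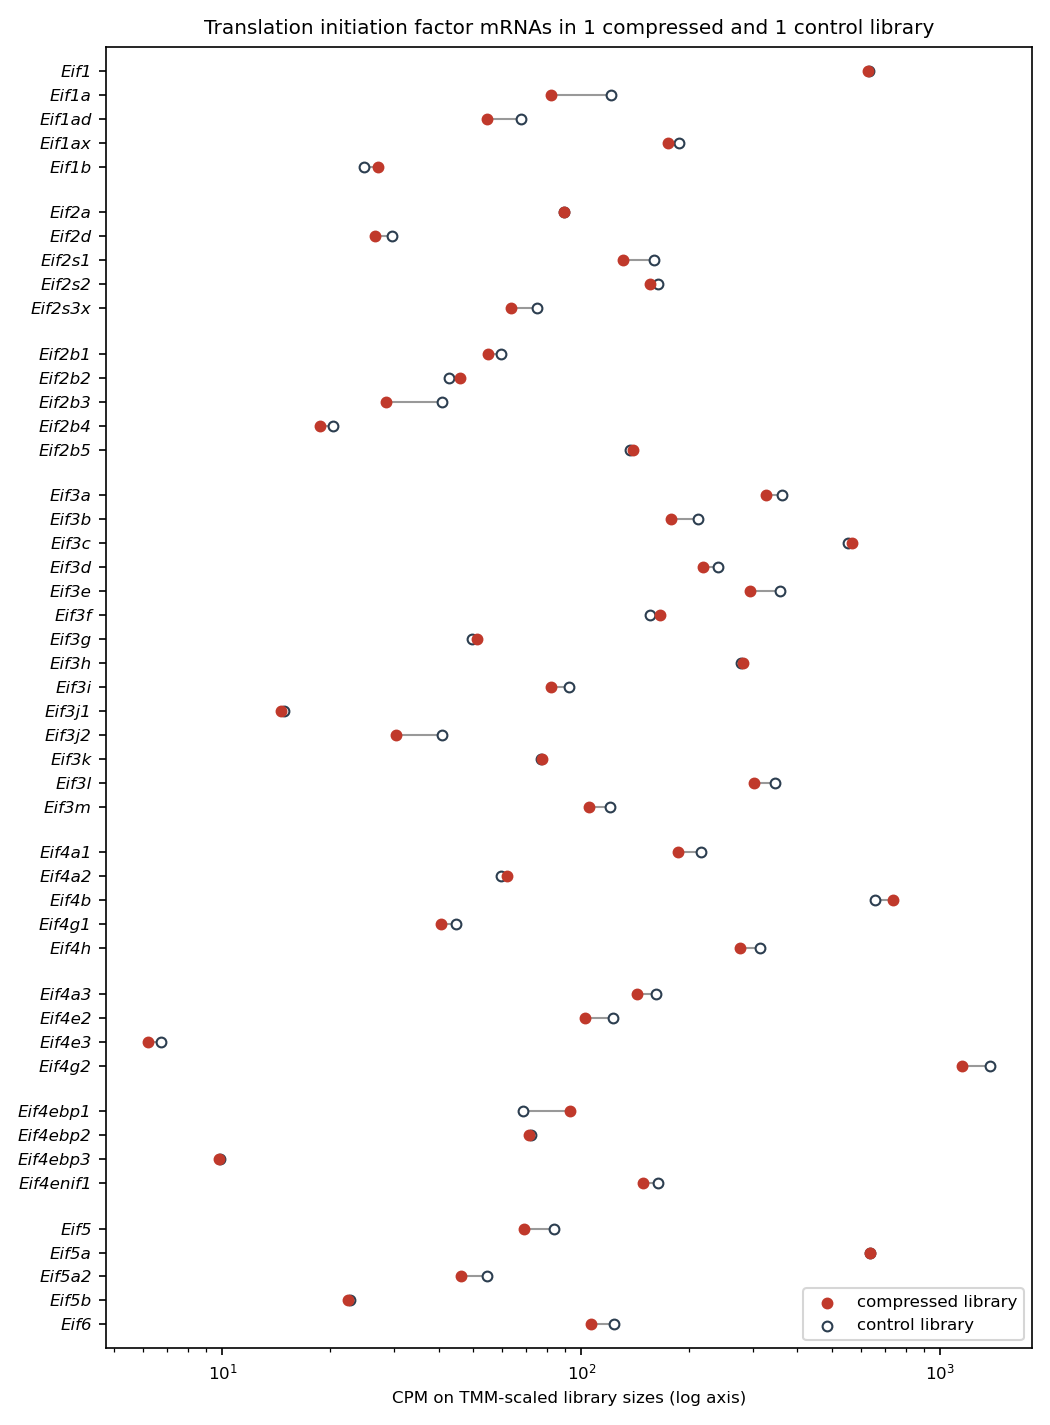
Level of each of the 47 initiation factor mRNAs with at least 1 CPM in either library, in the compressed (filled) and control (open) library, grouped by factor complex down the page. The x axis is CPM on a log scale and is not corrected for transcript length. Most filled points lie just left of the open ones, and Eif4ebp1 lies clearly to the right, at 93.2 CPM against 68.6 CPM.

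**Figure D2:**
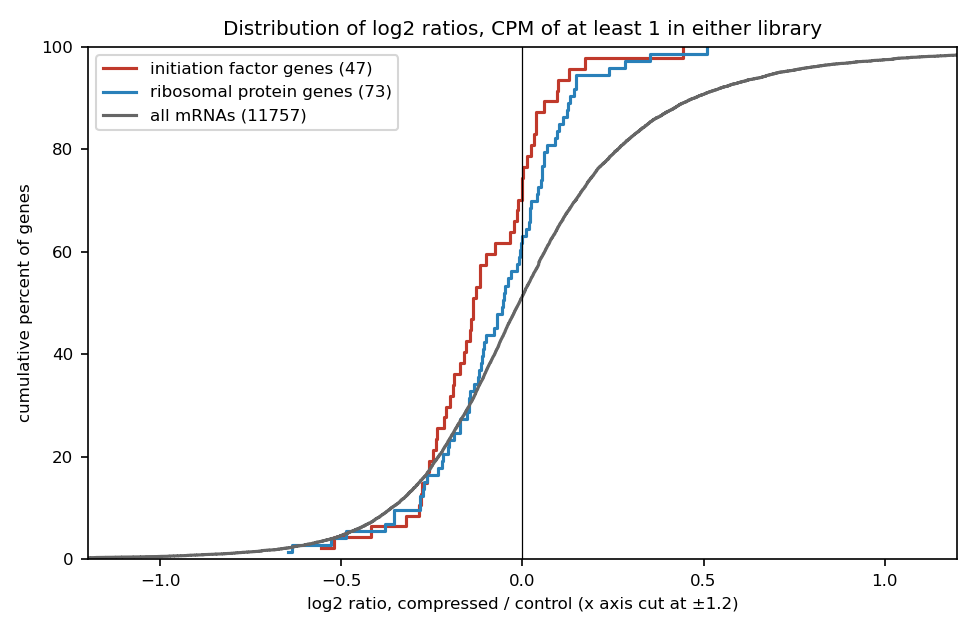
Cumulative percent of genes (y axis) by log2 ratio of the compressed over the control library (x axis) for 47 initiation factor genes, 73 cytoplasmic ribosomal protein genes and 11757 mRNAs. The initiation factor curve lies to the left of the others around 0, with a median of -0.14 against -0.05 for ribosomal protein genes and -0.01 for all mRNAs, and it is steeper than that of all mRNAs. The assignment of shared reads is not given for ribosomal protein genes either. Rps2 was listed at 0 in both libraries, and the lowest ratio, that of Rps12, rests on 87 against 141 counts. Summed counts had a ratio of 1.00 for ribosomal protein genes and 0.931 for initiation factor genes.

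The first step of start-site selection uses eIF1 and eIF1A, small proteins that hold the scanning small subunit open. In this group Eif1a had the lowest ratio of all members. Eif1a, on chromosome 18 at 46597704 to 46610225, had 2002 counts (82.4 CPM) under compression and 3037 counts (121.2 CPM) in the control library, a ratio of 0.680 (0.643 to 0.720). Its log2 ratio of -0.56 was above that of only 3.45% of all mRNAs. The X-linked gene for the same factor, Eif1ax, had 4232 against 4682 counts, a ratio of 0.933 (0.895 to 0.973). The quotient of Eif1a to Eif1ax counts, which does not depend on library scaling, was 0.473 under compression and 0.649 in the control library. The eIF1A domain gene Eif1ad had 1322 against 1704 counts, a ratio of 0.801 (0.745 to 0.861), just short of the limit of 0.8. Its span overlaps Banf1 (log2 ratio -0.25), and reads of the overlap cannot be assigned with certainty. Eif1 stood at 15233 against 15859 counts, with an interval that held 1 (0.969 to 1.01), and its close relative Eif1b had the highest ratio of the group, 1.09 (0.978 to 1.22). Where reads align to more than one of these related genes their assignment is not given.

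eIF2, the carrier of the initiator tRNA, was lower in its 3 expressed subunits. The gene of the alpha subunit, Eif2s1, whose protein is the target of the stress kinases, had 3170 counts (130.5 CPM) under compression and 3990 counts (159.2 CPM) in the control library, a ratio of 0.820 (0.782 to 0.859). The beta subunit gene Eif2s2 had 3773 against 4103 counts, a ratio of 0.949 (0.908 to 0.992). The gamma subunit gene Eif2s3x had 1548 against 1883, a ratio of 0.848 (0.793 to 0.908). Its Y-linked counterpart Eif2s3y was listed at 0 in both libraries. Of the alternative tRNA carriers, Eif2d had a ratio of 0.897 (0.806 to 0.998) and Eif2a had 2173 against 2243 counts, a ratio of 1.00 (0.942 to 1.06). Eif2d overlaps Rassf5 (1031 against 928 counts) and Eif2a overlaps Serp1 (7077 against 8238), so both ratios are uncertain. Summed over the group, counts were 11309 against 12961, a ratio of 0.9004.

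In eIF2B, the 5-subunit exchange factor that recharges eIF2, 1 subunit departed from the others. Eif2b3, which encodes the gamma subunit and lies on chromosome 4 at 117019399 to 117086852, had 694 counts (28.6 CPM) under compression and 1027 counts (40.98 CPM) in the control library, a ratio of 0.697 (0.632 to 0.769). Its partner in the catalytic part, the epsilon subunit gene Eif2b5, had 3390 against 3420 counts, a ratio of 1.02 (0.975 to 1.07). The quotient of Eif2b3 to Eif2b5 was 0.205 under compression and 0.3003 in the control library. Eif2b1 had a ratio of 0.916 (0.850 to 0.986). The intervals of Eif2b4, at 0.922, and of Eif2b2, the highest of the group at 1.07, held 1.

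eIF3 split into subunits that were lower and subunits that were level. Of its 14 genes, all above the minimum, 8 had intervals below 1 (30.8% of all mRNAs did) and 2 above 1 (28.1% of all mRNAs did), and the median log2 ratio was -0.14. The lower ones included core and peripheral subunits. Eif3e had 7155 counts (294.6 CPM) under compression and 8964 counts (357.7 CPM) in the control library, a ratio of 0.824 (0.798 to 0.850). Eif3b, a core subunit, had 4321 against 5297 counts, a ratio of 0.842 (0.808 to 0.876). The large scaffold subunit Eif3a had a ratio of 0.904, Eif3d, a subunit able to bind caps in human cells, 0.909, Eif3i 0.895, Eif3l 0.876 and Eif3m 0.870. The remaining subunits stood close to 1. Eif3f and Eif3h, which encode the pair of MPN-domain subunits, had ratios of 1.07 (1.02 to 1.12) and 1.02 (0.984 to 1.05). Eif3c, the other large scaffold subunit, had 13758 against 13842 counts, a ratio of 1.03 (1.00 to 1.05), while Eif3g and Eif3k had intervals that held 1.

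The loosely bound eIF3j subunit has 2 near-identical mouse genes. Eif3j2, on chromosome 18 at 43475418 to 43477836, had 741 against 1022 counts, the lowest ratio of the group at 0.748 (0.680 to 0.823). Eif3j1 had 353 against 373 counts, a ratio of 0.977 (0.842 to 1.13). How reads shared by the pair were assigned is not stated, and each gene also overlaps another protein-coding gene, so both ratios are uncertain. A pair of pseudogene rows carrying the older Eif3e name, Eif3s6-ps1 and Eif3s6-ps2, had 15 against 25 and 24 against 45 counts. With them added, Eif3e kept a ratio of 0.822.

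**Figure D3:**
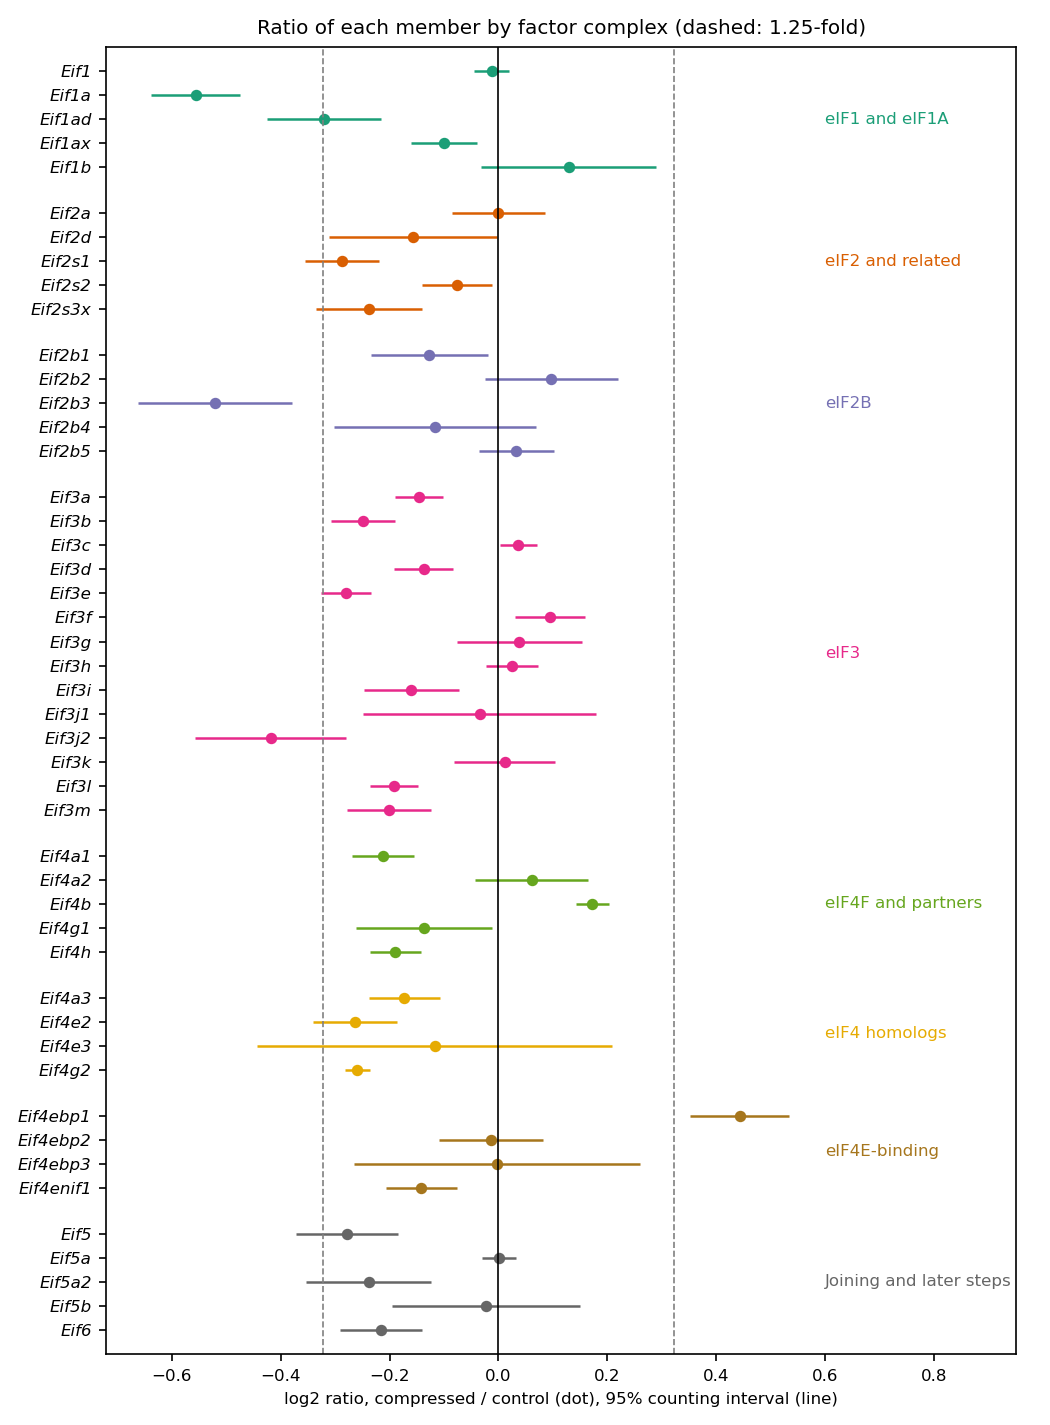
Log2 ratio of the compressed over the control library (x axis) for each of the 47 initiation factor genes, coloured and grouped by complex. Lines are 95% intervals for counting error and dashed lines mark the limit on size (a ratio 25% above 1, or 0.8). Eif1a, Eif2b3 and Eif3j2 lie left of the lower dashed line and Eif4ebp1 lies right of the upper one.

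Around the mRNA cap, the helicase and its partners did not move as a unit. eIF4F consists of the cap-binding protein eIF4E, the helicase eIF4A and the scaffold eIF4G, and eIF4B and eIF4H stimulate the helicase. Eif4a1, the main helicase gene, had 4514 counts (185.9 CPM) under compression and 5396 counts (215.3 CPM) in the control library, a ratio of 0.863 (0.830 to 0.898). Its paralog Eif4a2 had 1508 against 1492 counts, a ratio of 1.04 (0.970 to 1.12). The span of Eif4a2 overlaps Rfc4 (1098 against 1135 counts), and reads of the overlap cannot be assigned with certainty. The scaffold gene Eif4g1 had a ratio of 0.909 (0.834 to 0.992). Of the cofactors, Eif4h had 6717 against 7903 counts, a ratio of 0.877 (0.849 to 0.906), while Eif4b had 17976 counts (740.2 CPM) against 16462 counts (656.9 CPM), a ratio of 1.13 (1.10 to 1.15). The cofactor pair thus lay on opposite sides of 1 with intervals that excluded it. Eif4b took 8.89% (8.76 to 9.01) of all initiation factor counts under compression and 7.34% (7.24 to 7.45) in the control library.

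Some eIF4F rows cannot be read as levels. Eif4e was listed at 0 in both libraries, although every cell uses cap-dependent translation, so no level or ratio of the cap-binding protein can be given. Eif4g3 had 14 against 15 counts, under 1 CPM in both libraries. The pseudogene row Eif4a-ps4 held 2167 against 2604 counts, a ratio of 0.859, close to that of Eif4a1, and the sum of both rows had a ratio of 0.862 (0.834 to 0.890).

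The eIF4 homologs, which act outside the classical cap complex, were all below 1 in ratio, with an interval that held 1 for Eif4e3, and had a median log2 ratio of -0.22 over the 4 that passed the minimum. Eif4g2, also called DAP5, a shortened eIF4G relative that cannot bind eIF4E and serves cap-independent and eIF3d-dependent initiation, had the most counts of any member. It had 27898 counts (1149 CPM) under compression and 34455 counts (1375 CPM) in the control library, a ratio of 0.836 (0.822 to 0.849), and its share of initiation factor counts was 13.8% (13.6 to 13.9) against 15.4% (15.2 to 15.5). Eif4e2 (4EHP), a cap-binding protein that represses its targets and is known in human cells to take part in cap-dependent translation under hypoxia, had 2480 against 3073 counts, a ratio of 0.833 (0.790 to 0.878). Eif4a3, the helicase of the exon junction complex and no classical initiation factor, had a ratio of 0.887 (0.848 to 0.929). Eif4e3 had 151 against 169 counts, and Eif4e1b was listed at 0 in both libraries.

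The repressors that compete with eIF4G for eIF4E differed from one another. Eif4ebp1, on chromosome 8 at 27260327 to 27275656, had 2264 counts (93.2 CPM) under compression and 1719 counts (68.6 CPM) in the control library, a ratio of 1.36 (1.28 to 1.45). Its log2 ratio of 0.44 was the highest of the members and lay above that of 89.0% of all mRNAs. Eif4ebp2 had 1740 against 1813 counts, a ratio of 0.990 (0.927 to 1.06), and Eif4ebp3 had 238 against 246, a ratio of 0.998 (0.832 to 1.198). The quotient of Eif4ebp1 to Eif4ebp2 counts was 1.30 under compression and 0.948 in the control library, a change of 1.37-fold (1.253 to 1.503) that no library scaling can alter. Eif4enif1, which encodes the eIF4E transporter 4E-T, had 3603 against 4101 counts, a ratio of 0.907 (0.867 to 0.948). It overlaps Sfi1 (log2 ratio 0.69), and reads of the overlap cannot be assigned with certainty.

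The factors of subunit joining and later steps also divided. Eif5, the activator of GTP hydrolysis by eIF2, had 1678 counts (69.1 CPM) under compression and 2100 counts (83.8 CPM) in the control library, a ratio of 0.825 (0.773 to 0.880). Eif6, which keeps the ribosomal subunits apart, had 2584 against 3096 counts, a ratio of 0.861 (0.817 to 0.908). Eif5b, the GTPase that joins the subunits, had 542 against 568 counts, with an interval that held 1 (0.874 to 1.11). Eif5a, the hypusinated factor now placed mainly in elongation, had 15501 against 15984 counts, a ratio of 1.00 (0.979 to 1.02), while its paralog Eif5a2 had 1124 against 1368, a ratio of 0.848 (0.783 to 0.918). Eif5b overlaps Rev1 (2099 against 2562 counts) and Eif5a overlaps Gps2 (473 against 400). Reads of these overlaps cannot be assigned with certainty. The row Eif1-ps, typed as mRNA in the deposited table, was listed at 0 in both libraries. With Eif4e, Eif4e1b, Eif2s3y and Eif4g3 it makes up the 5 genes under the minimum. For Eif4e1b, a count of 0 leaves room for 0.124 CPM under compression and 0.12 CPM in the control library, for counting error only. This limit is not applied to Eif4e. It is also not applied to Eif1-ps and Eif2s3y, which each have a closely related listed gene, because the assignment of shared reads is not given.

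Promoter sequence was examined for the E-box, the 6-base site bound by MYC and related factors, since several initiation factor genes are textbook MYC targets. RefSeq windows on GRCm38.p6, from 250 bases before to 50 after the start site, were found for 39 members. The E-box CACGTG, which reads the same on both strands, lay in a window of 10 of these 39 genes (25.6%), against 9.16% of 15752 mRNA genes with windows of the same length. The windows below hold the site in capitals and are shown because they cover the genes of eIF4F and its cofactors that hold the site and, as a contrast in ratio, Eif3f and Eif1b. Eif4a2, Eif4b and Eif4g3 had windows without it. Each is 30 bases, 5′ to 3′ on the gene's strand.
Eif4e, plus strand, chr3:138527192-138527221: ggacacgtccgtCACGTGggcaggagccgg
Eif4a1, minus strand, chr11:69672595-69672624: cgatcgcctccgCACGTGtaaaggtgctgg
Eif4g1, plus strand, chr16:20672661-20672690: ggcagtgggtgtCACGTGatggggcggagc
Eif4h, minus strand, chr5:134639488-134639517: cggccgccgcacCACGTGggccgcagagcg
Eif3f, plus strand, chr7:108934335-108934364: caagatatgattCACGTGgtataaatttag
Eif1b, plus strand, chr9:120492570-120492599: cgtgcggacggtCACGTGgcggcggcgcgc

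Members with and without the E-box covered similar ranges of ratios. The 9 expressed members with a site had log2 ratios from -0.24 to 0.13 with a median of -0.14, and the 28 without one had log2 ratios from -0.32 to 0.17 with a median of -0.11. Eif4a1, Eif4g1 and Eif4h, whose sites shown start 189, 54 and 96 bases before the start, had ratios below 1. Eif3f and Eif1b, with sites 68 and 24 bases before it, had ratios of 1.07 and 1.09, with an interval that held 1 for Eif1b. Of the genes shown, Eif4g1 holds a second E-box at position 16 after the start and Eif4e holds one 228 bases before it. The E-box members not shown, Eif3a, Eif3k, Eif5a and Eif5a2, had ratios of 0.904, 1.01, 1.00 and 0.848. The core of the hypoxia response element, searched as ACGTG on both strands, lies within every E-box. It was in a window of 18 of 39 members (46.2%), against 23.5% of mRNA genes, a comparison that was likewise not matched. These 18 include the 10 members with an E-box, so the 2 searches are not independent. The 17 expressed members with the core had log2 ratios from -0.28 to 0.13 with a median of -0.02. The 20 without it had log2 ratios from -0.32 to 0.17 with a median of -0.14, so the ranges overlapped. The ATF4 composite site, searched as TGATGNAA on both strands, was in the window of 1 member, Eif2s3x, against 4.02% of mRNA genes. A match describes these letters only, and none of the 4 genes past the limit on size is among the 39.

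In the stress branch that acts on eIF2, the kinase mRNAs divided and the downstream genes were mostly higher. Of the 4 eIF2 kinases, 0 were higher and 1 was lower by the limit on size, against 14.2% and 10.8% of all mRNAs. Among them, the endoplasmic reticulum kinase gene Eif2ak3 (PERK) had 1980 against 1661 counts, a ratio of 1.23 (1.15 to 1.31), and the amino acid sensor Eif2ak4 (GCN2) a ratio of 1.12 (1.06 to 1.18). The heme-regulated kinase gene Eif2ak1 had 977 against 1301 counts, a ratio of 0.775 (0.712 to 0.843), and the double-stranded RNA kinase gene Eif2ak2 (PKR) a ratio of 0.874 (0.837 to 0.913). Of 5 eIF2 phosphatase genes 1 was higher by the limit on size and 0 lower, against the same shares. Ppp1r15a (GADD34), the inducible subunit that directs the phosphatase to eIF2, had 1233 counts (50.8 CPM) under compression and 763 counts (30.4 CPM) in the control library, a ratio of 1.67 (1.52 to 1.83). The constitutive subunit gene Ppp1r15b had a ratio of 0.829 (0.799 to 0.859). All 10 genes of the ATF4 branch had ratios above 1, 6 of them past the limit on size (14.2% of all mRNAs were), with a median log2 ratio of 0.51. Ddit3 (CHOP) had 817 against 572 counts, a ratio of 1.47 (1.32 to 1.64). Atf4, whose protein is made by translation control on its leader, had 11955 against 12154 counts, a ratio of 1.02 with an interval that held 1 (0.990 to 1.04). Chac1, Nupr1 and Trib3, targets of this branch, had ratios of 1.49, 1.45 and 1.43.

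On the mTORC1 and cap side, Pdcd4 and Ddit4 stood apart from a list whose other ratios lay closer to 1. Of 16 listed genes 15 passed the minimum, with 3 higher and 1 lower by the limit on size, counts near the all-mRNA shares of 14.2% and 10.8%, and a median log2 ratio of -0.02. Pdcd4, which binds eIF4A and blocks its entry into eIF4F, had 840 counts (34.6 CPM) under compression and 340 counts (13.6 CPM) in the control library, a ratio of 2.55 (2.24 to 2.90), the highest of this list. Ddit4 (REDD1), an inhibitor of mTORC1 under low oxygen, had 780 against 399 counts, a ratio of 2.02 (1.79 to 2.28). The eIF4E kinase gene Mknk2 had a ratio of 1.28 (1.1997 to 1.36) and Mknk1 of 1.14 (1.06 to 1.23). Mtor had 393 against 424 counts, with an interval that held 1, and the mTORC1 subunit gene Mlst8 a ratio of 0.760 (0.704 to 0.821). Of 6 genes of poly(A)-binding protein and its partners 1 was higher by the limit and 0 lower, against 14.2% and 10.8% of all mRNAs. Pabpc1 had a ratio of 1.04 (1.03 to 1.05). Paip2, an inhibitor of poly(A)-binding protein, had 153 against 89 counts, a ratio of 1.77 (1.36 to 2.33).

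**Figure D4:**
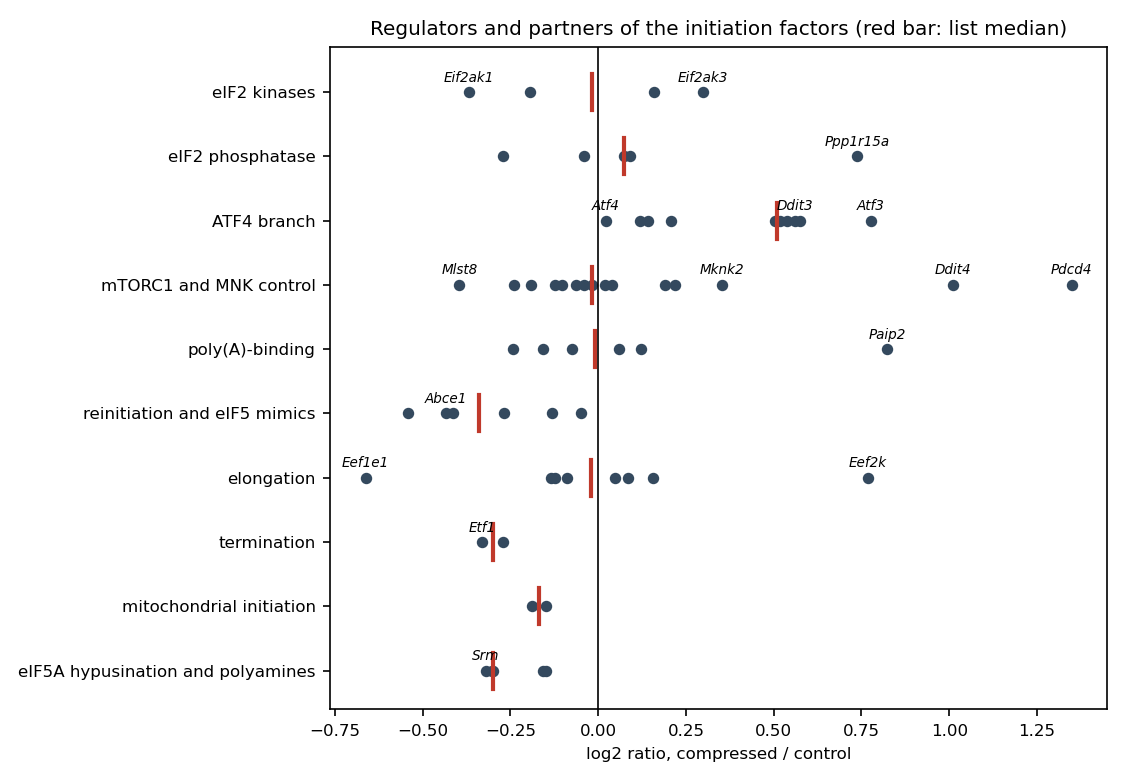
Log2 ratio of the compressed over the control library (x axis) for the listed regulators and partners of the initiation factors with at least 1 CPM in either library, 1 row per list, 1 dot per gene. Red bars mark list medians. Pdcd4, Ddit4, Paip2, Atf3, Eef2k and Ppp1r15a lie farthest right, and all members of the reinitiation list lie left of 0.

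Factors of neighbouring steps of translation were mostly lower. All 6 genes for reinitiation, recycling and eIF5 mimics had ratios below 1, as did 51.4% of all mRNAs, with an interval that held 1 for Bzw2. By the limit on size 3 of the 6 were lower, against 10.8% of all mRNAs. Abce1, which splits ribosomes after termination, had 8081 counts (332.7 CPM) under compression and 11260 counts (449.3 CPM) in the control library, a ratio of 0.741 (0.720 to 0.762). Bzw1, an eIF5 mimic that tightens start-codon choice in human cells, had 8200 against 11262 counts, a ratio of 0.751 (0.730 to 0.773), and Mcts2 had 307 against 461, a ratio of 0.687 (0.593 to 0.796). Of 3 termination genes 2 passed the minimum and 1 was lower by the limit, against 10.8% of all mRNAs. The release factor gene Etf1 had a ratio of 0.795 (0.767 to 0.825), and its partner gene Gspt1 of 0.829. The 5 genes of eIF5A hypusination and polyamine synthesis had a median log2 ratio of -0.30 and 0 past the limit (10.8% of all mRNAs were lower by it), with Srm, spermidine synthase, at a ratio of 0.801 (0.764 to 0.839) and the hypusine synthase gene Dhps at 0.810. The mitochondrial initiation factor genes Mtif2 and Mtif3 had ratios of 0.901 and 0.878.

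Among elongation genes Eef2 was near level, some genes of elongation factor 1 (eEF1) were slightly lower and the gene of an inhibitor was higher. Of 10 listed genes 8 passed the minimum, with 1 higher and 1 lower by the limit, near the all-mRNA shares of 14.2% and 10.8%. Of the eEF1 genes, Eef1a1 had a ratio of 1.06 (1.05 to 1.07). Eef1b2, Eef1d and Eef1g had ratios of 0.911, 0.918 and 0.941, with intervals below 1. Eef2, the translocase, had 13997 against 13971 counts, a ratio of 1.03 (1.01 to 1.06). Eef2k, the kinase that inactivates it, had 1319 counts (54.3 CPM) under compression and 799 counts (31.9 CPM) in the control library, a ratio of 1.70 (1.56 to 1.86). Eef1e1, a scaffold protein of the tRNA synthetase complex, had 459 against 750 counts, a ratio of 0.632 (0.561 to 0.710), and was the lowest of this list. Some mRNAs start with an oligopyrimidine tract (TOP), a mark of mRNAs whose translation follows mTORC1. A list of 4 initiation factor mRNAs known to do so held Eif3e, Eif3f, Eif3h and Eif4b. It is not a full list, and the other members were not examined for the tract. Of these 4, 3 had ratios above 1, with Eif4b at 1.13 and an interval that held 1 for Eif3h, and Eif3e stood at 0.824. Among all mRNAs, 51.4% had a ratio below 1.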

How the data were processed

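One compressed and 1 control library of OCCM-30 cells were analysed. The authors deposited whole-number counts per gene with no normalization. Per the submitters' processing notes, HISAT2 and GRCm38 were used. How reads were counted (tool, annotation, strand, multiple alignments) is not stated there or in the labels, so counts of overlapping genes and near-identical copies are uncertain.

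TMM factors came from edgeR 4.0.16 in R 4.3.3, computed over all rows. Log2 ratios used a prior count of 0.5. Intervals are exact conditional binomial (Clopper-Pearson) at 95%, those of shares are exact binomial, and those of quotients use the normal approximation on the log scale. All cover counting error only. A gene was called if it had at least 1 CPM in either library, an interval that excluded 1 and a ratio at least 25% above 1 or at most 0.8 (the limit on size), or 1.5-fold in a second rule. The procedure was tested on data simulated with counting error only, with calls scored at 1.5-fold. That test covers neither the limit on size nor the spread between cultures. With 1 library per group there is no residual degree of freedom, so edgeR's quasi-likelihood test was not run. Every member is accounted for. In each complex the highest and lowest ratios and every member past the limit on size were named. In each pathway list up to 4 genes past it were named, with fixed regulators. Gspt1, Srm, Dhps, Mtif2, Mtif3, Eef1a1, Eef1b2, Eef1d and Eef1g were named after their values were seen. The members and lists were chosen with earlier results of these data known. Symbols of 51 members matched RefSeq (GRCm38.p6), which gave positions and promoter sequences. The motif search, the quotients of gene pairs and the shares of counts were added after values were seen.

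Alternatives were total-count scaling, DESeq2 1.42.0 size factors, upper-quartile factors, a loess fit on abundance, no CPM minimum or one of 5, a prior count of 5 and no interval requirement.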

Additional observations from a re-analysis of the deposited data

How the results depend on the processing

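The counts past the limit on size and past 1.5-fold stayed within 1.5 times under the alternatives named above. The prior count does not enter these counts, so that setting could not change them. The medians of all members and of eIF3 moved by no more than the counting error of a typical single gene of the set. That is a loose limit for a median over many genes. The interval requirement does not enter the medians. Eif4ebp1 was the 1 member higher by the limit on size under each alternative. The median log2 ratio of the members ran from -0.15 with DESeq2 size factors to -0.11 with the loess fit, and members with a ratio below 1 from 37 to 32 of 47. Eif1ad joined the lower members, making 4, with total-count scaling and with DESeq2 size factors. Counts of members with an interval wholly below or above 1, without a limit on size, were not repeated under other scalings. Settings chosen after seeing the data left out members. Without the 13 members that have a closely related listed gene, 1 member was lower by the limit (Eif2b3), since Eif1a and Eif3j2 were among those left out, and the median was -0.14 over 36 genes. Without the 10 members overlapping another protein-coding gene with reads, 2 were lower and the median was -0.14. Those left out were Eif1ad, Eif2a, Eif2d, Eif3j1, Eif3j2, Eif3m, Eif4a2, Eif4enif1, Eif5a and Eif5b. No single-gene log2 ratio changed sign among those past the limit, and 0 of 47 moved beyond its counting interval under another scaling or prior count. Total-count, DESeq2 and upper-quartile scaling each shift all genes by the same small amount. Eif3j2, for example, went from -0.418 to -0.430 with DESeq2 size factors. A change of sign past the limit was therefore hardly possible. No paired analysis was possible because each group has 1 library. No alternative addresses the spread between cultures, which limits every comparison here.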
